A study of Mus musculus with 6 samples.

Results

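Protein-coding genes of mouse chromosome 14 were followed as a group in RNA from Nt5e knock-out and wild-type aortic cells, because earlier results on these same libraries showed that the chromosome's genes lay higher in the knock-out. Genes were taken when they had at least 50 exon reads in at least 5 of the 6 libraries, and 17 of these were set aside by name. This left 344 of the 25683 genes in the table, out of 895 protein-coding and 1157 total genes on the chromosome. The last of them along the chromosome, Itgbl1, ends at 123975618 (GRCm38). The chromosome was chosen for its difference between the genotypes, so the size of that difference, the counts of genes that differ and the intron values of the same libraries are a description with no test of the chromosome as a whole.

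Libraries of poly(A)-selected RNA came from cultured cells that the labels call a primary line of mouse aortic vascular smooth muscle cells. There were 3 Nt5e knock-out libraries (KO1, KO2 and KO3) and 3 wild-type libraries (WT4, WT5 and WT6). All 6 were kept for 48 h at 0.5% serum after growth at 10% serum, and no other allele, strain, age or agent is named. Nt5e, on chromosome 9, is the gene of CD73, an ectoenzyme that makes adenosine from AMP. Nothing in the labels says that libraries of a genotype came from separate animals, clones or cultures, so a p-value here reflects the scatter among these samples alone, and that scatter may be technical.

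As background, the amount of RNA made from a gene usually follows the number of copies of the gene in the cell. The genes of a chromosome that is gained or lost therefore tend to move together by a modest amount, on top of the larger changes of single regulated genes. Cells kept in culture can gain or lose whole chromosomes or arms. Intron reads come mostly from RNA that has not yet been spliced and are closer to the rate of transcription, whereas exon reads count mainly mature RNA. DNA was not measured in these libraries, and whether the copy number of chromosome 14 differs between the genotypes was not tested.

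The libraries held 19919095 to 23669252 exon reads and 963039 to 1214127 intron reads each. Nt5e itself had 22, 1 and 2 exon reads in KO1, KO2 and KO3 and 615, 688 and 486 in WT4, WT5 and WT6. KO2 and KO3 were nearly identical (chi-square per degree of freedom of their counts over genes 3.23, where sampling noise alone gives about 1), as were WT4 and WT6 (3.33). KO1 stood apart from both other knock-out libraries (184 to 186) and was about as far from the wild-type libraries (157 to 202). The smooth muscle markers Des and Myocd had at most 4 reads in any library, and Myh11, smooth muscle myosin, had 1 to 3 reads in the wild type and 5, 54 and 67 in the knock-out, so that these defining markers of the labelled cell type were near 0. Acta2, smooth muscle actin, had 1553, 1263 and 2180 reads in the wild type and 1705, 11583 and 9859 in the knock-out. The 8 listed smooth muscle markers summed to 140 to 214 CPM (counts scaled to the library's total) in the wild type and to 180, 658 and 633 CPM in KO1, KO2 and KO3, and of the 5 tested Smtn rose, Cnn1 fell and 3 did not pass. The 4 listed fibroblast markers summed to 4078, 4755 and 5042 CPM in KO1, KO2 and KO3 and to 3735 to 3816 CPM in the wild type. Of them Pdgfra rose, and Col1a1, Dcn and Lum did not pass. Col1a1 had 17251, 44346 and 43852 reads in KO1, KO2 and KO3 and 17377 to 24983 in the wild type. Dcn had 68111, 52238 and 47030 and, in the wild type, 54196 to 59370. The 6 listed markers of mesothelium and epithelium summed to 46.8 to 103 CPM in the knock-out and 1847 to 1913 CPM in the wild type, and the 5 of them with enough reads for a test fell. The mesothelial difference moved with genotype, and the smooth muscle sum moved with KO2 and KO3. A smaller difference in the fibroblast sum also moved with genotype, but its genes did not move alike in the knock-out libraries. The part of these differences in the values of chromosome 14 was not tested. In such bulk RNA, fewer cells of a type and less RNA per cell cannot be told apart.

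RefSeq start regions (GRCm38.p6, from 250 bases before to 50 bases after the gene start) were found by symbol for 266 of the 344 genes. Arf4 (chr14:26637884-26638183, plus strand), Glud1 (chr14:34310477-34310776, plus strand) and Tm9sf2 (chr14:122106832-122107131, plus strand) are shown because they are abundant genes spread over the chromosome with differences within the middle 50% of the chromosome's genes. Pcdh9 (chr14:93890630-93890929, minus strand) and Anxa8 (chr14:34085729-34086028, plus strand) are shown because they departed from it by far, the first upwards and the second downwards. Sequences are written 5′ to 3′ on the gene's strand, and capitals mark every match, on either strand, to the letters TATAAA of the TATA box, to CCAAT of the CCAAT box, to GGGCGG of the GC box or to TGACGTCA of the cAMP response element, and matches may overlap or adjoin.
Arf4: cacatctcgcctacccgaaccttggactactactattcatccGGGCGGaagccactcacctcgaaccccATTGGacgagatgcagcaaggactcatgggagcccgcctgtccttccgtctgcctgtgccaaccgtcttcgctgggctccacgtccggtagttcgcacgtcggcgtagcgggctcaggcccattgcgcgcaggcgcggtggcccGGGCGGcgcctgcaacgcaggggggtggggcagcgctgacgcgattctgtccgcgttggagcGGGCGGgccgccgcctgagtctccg
Glud1: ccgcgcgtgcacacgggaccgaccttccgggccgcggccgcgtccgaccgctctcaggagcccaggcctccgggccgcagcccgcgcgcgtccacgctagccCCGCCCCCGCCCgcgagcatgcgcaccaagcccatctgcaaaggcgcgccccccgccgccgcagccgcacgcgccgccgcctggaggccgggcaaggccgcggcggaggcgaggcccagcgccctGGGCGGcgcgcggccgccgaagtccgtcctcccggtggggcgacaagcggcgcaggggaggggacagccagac
Tm9sf2: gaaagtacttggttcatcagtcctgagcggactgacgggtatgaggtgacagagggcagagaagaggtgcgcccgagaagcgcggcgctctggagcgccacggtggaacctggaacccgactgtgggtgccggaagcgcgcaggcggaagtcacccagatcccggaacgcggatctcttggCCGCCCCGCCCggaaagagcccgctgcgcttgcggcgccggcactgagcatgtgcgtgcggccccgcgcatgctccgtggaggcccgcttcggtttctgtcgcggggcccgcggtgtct
Pcdh9: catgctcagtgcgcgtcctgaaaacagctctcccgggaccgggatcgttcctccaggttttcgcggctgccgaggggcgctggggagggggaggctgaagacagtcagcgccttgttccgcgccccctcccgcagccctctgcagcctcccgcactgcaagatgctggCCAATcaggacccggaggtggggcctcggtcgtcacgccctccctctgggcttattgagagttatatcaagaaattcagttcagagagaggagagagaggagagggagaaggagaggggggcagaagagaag
Anxa8: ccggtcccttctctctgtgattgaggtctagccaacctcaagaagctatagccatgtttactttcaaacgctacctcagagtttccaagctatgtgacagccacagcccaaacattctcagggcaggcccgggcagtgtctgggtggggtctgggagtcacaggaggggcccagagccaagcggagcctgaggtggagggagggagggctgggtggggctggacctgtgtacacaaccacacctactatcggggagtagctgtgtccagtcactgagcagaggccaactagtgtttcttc

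Arf4, Glud1 and Tm9sf2 carry 3, 3 and 2 matches to the GC box GGGCGG, the letters bound by Sp1-type factors, and lie in regions of 68%, 81% and 68.3% G and C. Pcdh9 has 1 match to the CCAAT box and none to the GC box, and Anxa8 has no match to any of the 4 motifs, in regions of 62.7% and 57.3% G and C. Over the 266 start regions, 68.8% held GGGCGG, against 48% of all 16743 regions in the table. CCAAT was found in 40.6% against 39%, TATAAA in 7.14% against 13.1%, and TGACGTCA, the cAMP response element, in 1.5% against 2.42%. The median start region had 62% G and C and 23 CpG pairs, against 56.7% and 14 over all regions. Genes here were kept for being expressed, whereas the regions of the whole table were not, and a match is a description of letters and not of binding.

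Chromosome 14 genes lay higher in the knock-out by a modest amount at the median. The median log2 fold change of exon reads, knock-out over wild type, was 0.42 over the 344 genes and 0.02 over all 12660 genes tested, a shift of 0.40 or 1.32-fold. The middle 50% of the 344 genes ran from 0.21 to 0.67. Of them, 295 (85.8%) were above the median of all tested genes, compared with 51.8% of the 10232 protein-coding genes on the other chromosomes that met the same read minimum. Intron reads, counted apart from exon reads in the same libraries, gave a shift of 0.44 or 1.36-fold over the 318 genes that could be tested, and 264 of these (83%) were above the median of all genes.

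For single genes, values are given below for KO1, KO2 and KO3 in that order, then, after the word against, for WT4, WT5 and WT6, and log2 fold changes are knock-out over wild type ± SE with n = 3 each. By gene, 175 of the 344 (50.9%) rose and 11 (3.2%) fell in edgeR's quasi-likelihood F test at a Benjamini-Hochberg adjusted p under 0.05, and 158 did not pass. Of all genes tested, 14.1% rose and 13.7% fell. All 3 knock-out values lay above all 3 wild-type values for 240 genes (69.8%, and 24.3% of all genes) and below them for 23 (6.69%, and 25.5% of all genes). Intron reads gave 62 rises (19.5%, and 4.98% of all genes) and 10 falls (3.14%, and 7.03%), with 161 genes (50.6%, and 15.2%) entirely higher and 17 (5.35%, and 17%) entirely lower. The counts depended on single libraries. Without KO1, 230 genes rose and 37 fell in exon reads. Leaving out KO2, KO3, WT4, WT5 or WT6 gave 97, 99, 72, 96 and 84 rises and 6 to 8 falls. Of all genes, 3524 passed with all 6 libraries and 8486 without KO1, 49.2% of the latter higher. Without any 1 of the others 1120 to 1671 passed, 45.8% to 49.3% of them higher. KO2 and KO3, the knock-out libraries left without KO1, were nearly identical and scattered little. A pass without KO1, here or below, therefore carries little weight. Rises in intron reads were 132 without KO1 and 10 to 24 without any 1 of the others. Of all genes, 3559 passed in intron reads without KO1, and 514 to 689 without any 1 of the others. When each nearly identical pair was summed to 1 sample, 2 samples per genotype were left. There edgeR called 0 of the 344 genes in either direction at the adjusted threshold, while the shift was again 0.40. At an unadjusted p under 0.05 in edgeR, 140 of the 344 were higher and 9 lower, and 2640 of all 13041 genes tested in that setting passed. The calls of all 22 genes called among the 35 named by rule were lost in that setting (adjusted p = 0.0617 to 0.366).

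**Figure D1:**
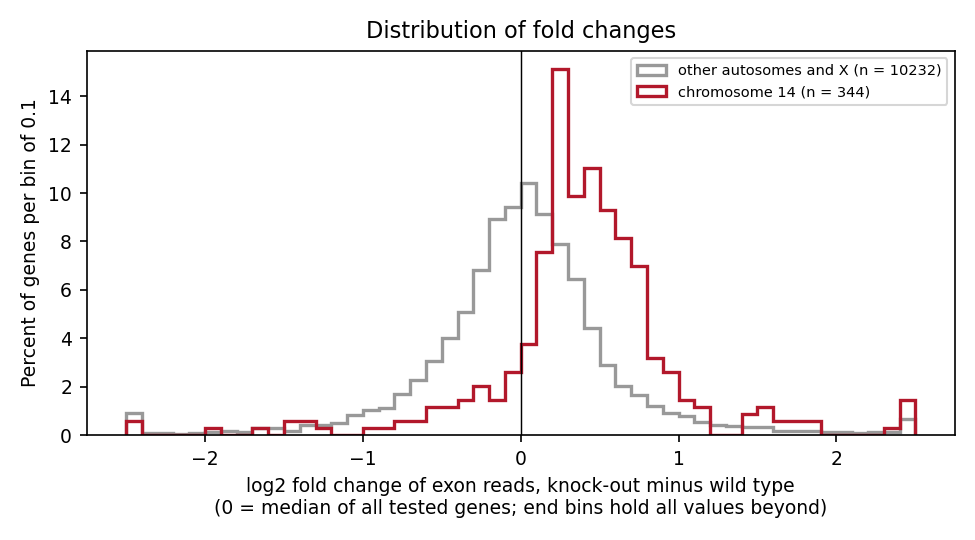
Log2 fold changes of exon reads, knock-out minus wild type, set to 0 at the median of all tested genes (x axis), against the percent of genes per bin of 0.1 (y axis), for 344 chromosome 14 genes in red and 10232 protein-coding genes of other chromosomes in grey. The red outline is displaced to the right as a whole, with 45.3% of its genes between 0.2 and 0.6, where 21.7% of the other genes lie.

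Most of the 344 genes lay modestly higher. Relative to the median of all genes, 156 of the 344 (45.3%) lay between 0.2 and 0.6, compared with 21.7% of genes elsewhere, and 72 (20.9%) between 0.6 and 1, compared with 5.84%. Above 1 lay 28 (8.14%, compared with 4.65%), and below -1 lay 9 (2.62%, compared with 4.72%). In all, 49 lay below 0. The genes also took a larger part of each knock-out library. They held 3.17%, 3.13% and 3.11% of exon reads in KO1, KO2 and KO3 and 2.58%, 2.47% and 2.56% in WT4, WT5 and WT6 (3.13% ± 0.031 against 2.54% ± 0.059, mean ± SD, n = 3 each). Reads across exon junctions gave 3.39% ± 0.061 against 2.75% ± 0.050, and intron reads 3.73% ± 0.124 against 2.53% ± 0.099, again with no overlap between the genotypes.

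KO1, which differed from KO2 and KO3 over the transcriptome, had nearly the same median shift on this chromosome. Each knock-out library was set against the wild-type mean, and each wild-type library against the mean of the other 2. The medians were 0.43, 0.42 and 0.42 in KO1, KO2 and KO3 and 0.03, -0.05 and 0.02 in WT4, WT5 and WT6. The share of genes above the library's all-gene median was 87.5%, 81.4% and 80.8% in the knock-out libraries. Intron reads gave 0.39, 0.44 and 0.46 and, in the wild type, 0.02, -0.04 and 0.02. Of the 344 genes, 262 were above in all 3 knock-out libraries and 29 in none. The values of single genes were closer together in KO1, with an interquartile range of 0.44, than in KO2 and KO3, at 0.60 and 0.59.

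The other 18 autosomes and chromosome X showed medians of -0.17 (chromosome 11) to 0.22 (chromosome 18) in exon reads and -0.15 to 0.24 in intron reads. All 3 knock-out libraries were above 0 on 8 of these 19, and above 0.2 on none. Chromosome 15 came nearest, with 0.17, 0.27 and 0.26 in KO1, KO2 and KO3. On chromosome 18 the knock-out libraries parted, at -0.17, 0.38 and 0.38, a range of 0.55 where chromosome 14 had a range of 0.01. A narrow range was also found on chromosomes X (0.0028) and 1 (0.013), whose medians were -0.01 and 0.03. These values are a description of why chromosome 14 was picked and are given with no test.

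**Figure D2:**
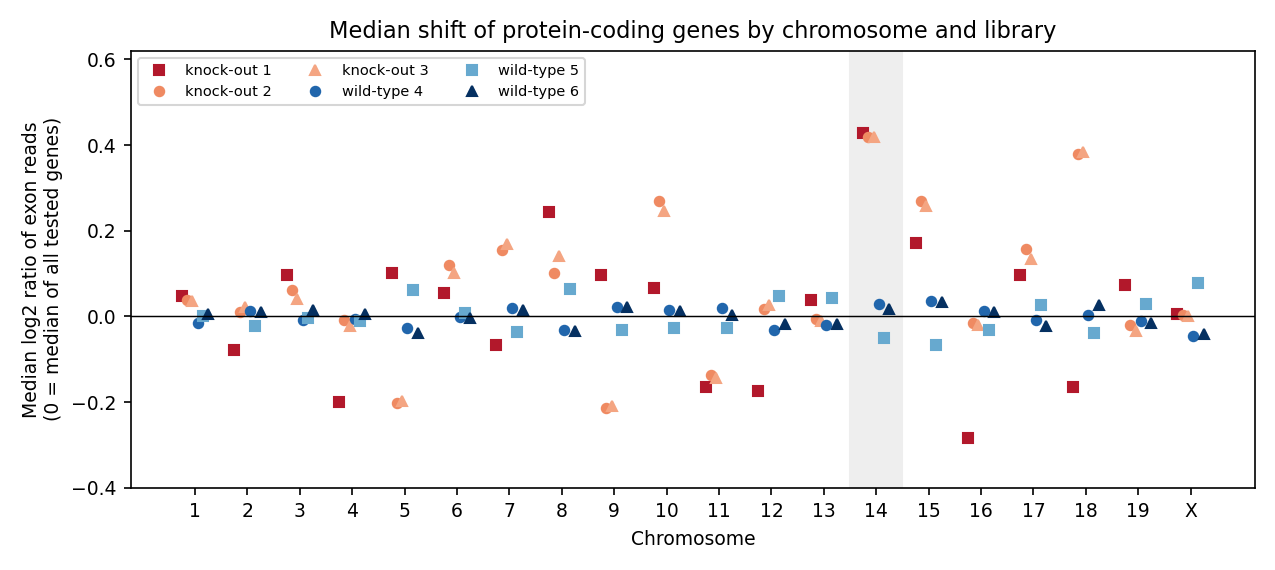
Median log2 ratio of exon reads per chromosome (x axis), relative to the median of all tested genes in that library (y axis), with 1 point per library, knock-out libraries against the wild-type mean and wild-type libraries against the mean of the other 2. On chromosome 14, shaded, the 3 knock-out points coincide at 0.42 to 0.43, while on chromosome 18 KO1 is at -0.17 and KO2 and KO3 at 0.38.

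A positive shift extended over the whole length of the chromosome that holds expressed genes, though not by an equal amount. Cut into windows of 10 Mb by gene start, 13 of 13 windows had a median above 0 in exon reads and 13 of 13 in intron reads. The 6 windows with at least 20 genes, which cover 20 to 80 Mb, ranged from 0.33 to 0.51 in exon reads and from 0.44 to 0.51 in intron reads. From 20 to 30 Mb, 38 of 42 genes were above the median of all genes and 29 rose. From 50 to 60 Mb, the densest window, 73 of 83 genes were above it, 40 rose and 0 fell.

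Windows with few genes scattered more. The 80 to 90 Mb window holds only Diaph3 and Tdrd3 (0.08), and the 110 to 120 Mb window, with 7 genes, gave 0.66. From 100 to 110 Mb, with 12 genes, KO1 was lower than the other knock-out libraries (0.16, 0.46 and 0.45), and from 120 to 130 Mb, with 13 genes, it was higher (0.46, 0.23 and 0.28). Intron reads gave only 0.12 from 120 to 130 Mb, the lowest of the 10 Mb windows, where exon reads gave 0.31. At 5 Mb, 21 of 22 windows were above 0. The exception, 40 to 45 Mb at -1.32, holds 3 genes, of which Tspan14 rose and Prxl2a and Gm8113 fell. At 20 Mb, 7 of 7 windows were above 0, from 0.31 to 0.45.

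Among the 344 genes, those below the median of all genes were scattered singly or in pairs. In order of gene start, the longest run of genes above it had 32 members, from Tmem260 to Ajuba (48446124 to 54577558), and the next had 21, from Polr3d to Cog3. No more than 2 genes in a row, in this order of the 344, were below it together. There were 6 such pairs: Smim4 with Nt5dc2, Oxnad1 with Ncoa4, Gdf10 with Anxa8, Prxl2a with Gm8113, Scara3 with Ephx2, and Rap2a with Ipo5. Only in the pair of Prxl2a and Gm8113 did both genes fall. Genes set aside by name or under the read minimum have no place in this order, and with them the runs could differ. Of the 22 tested genes set aside by name, 13 were above the median of all genes. Others, such as Clu (-1.89) and Gata4 (-1.54), were below it.

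**Figure D3:**
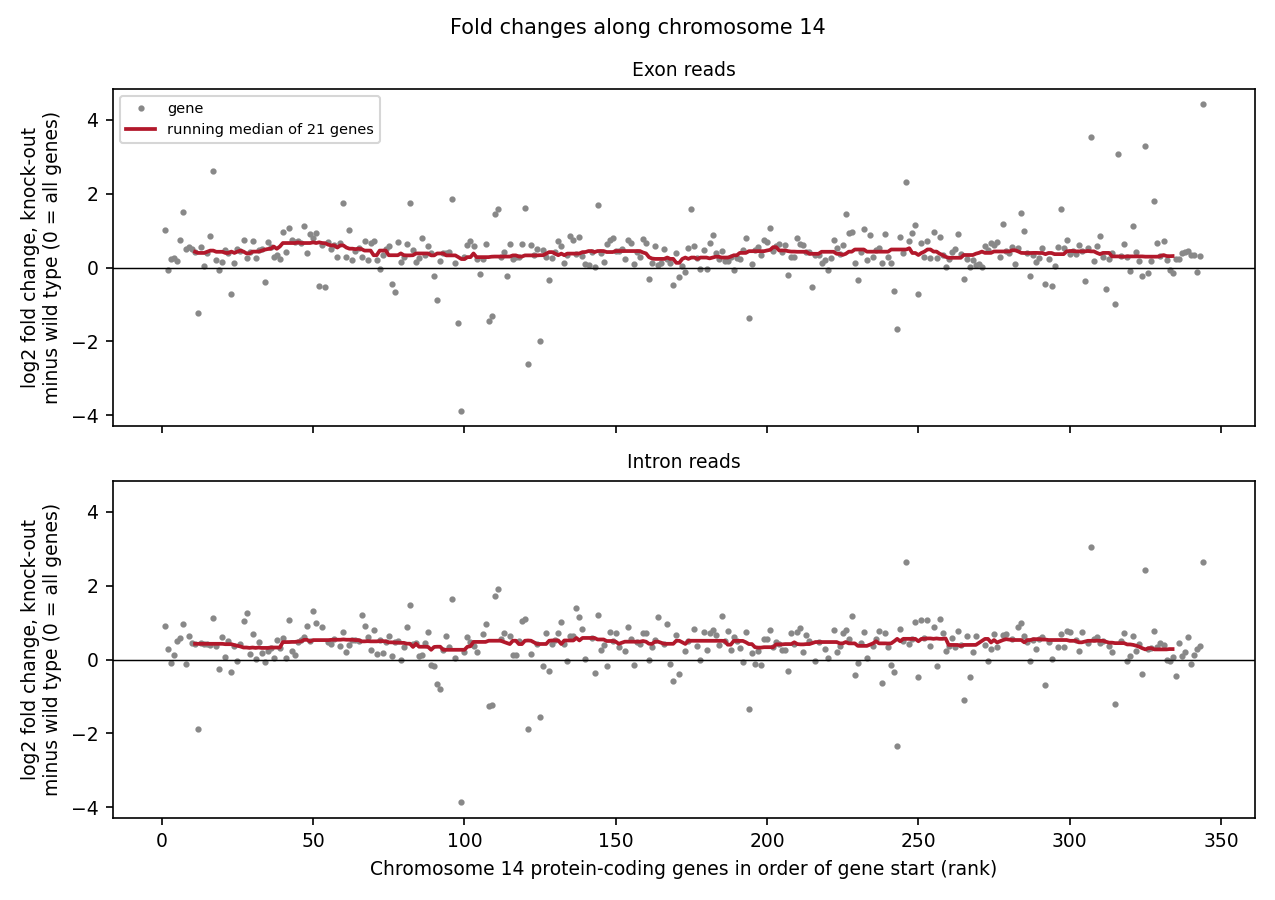
Log2 fold change of each chromosome 14 gene, knock-out minus wild type and relative to the median of all tested genes (y axis), against its rank by gene start (x axis), for exon reads above and intron reads below, with the running median of 21 genes in red. The running medians stay above 0 in both kinds of reads wherever they are drawn, and strongly changed genes such as Anxa8 and Itgbl1 stand out singly. Each needs 21 genes, so the outermost genes at either end of the chromosome have no running median.

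Exon and intron fold changes of single genes were close to each other. Of the 318 genes measured in both, 251 were above the median of all genes in both, 28 below in both, 26 above in exon reads only and 13 above in intron reads only. The median difference of exon minus intron fold change was 0.01, with a middle 50% from -0.22 to 0.24. In calls, 51 genes rose in both, 119 in exon reads only and 11 in intron reads only, 6 fell in both, and 0 were called in opposite directions. Intron reads were far fewer than exon reads, and the part of this in the number of calls was not tested. Of the 65 genes with at least 100 intron reads in every library, 61 were on the same side in both, with medians of 0.43 in exon and 0.44 in intron reads. Across the 318 genes the fold changes had a Pearson r of 0.84, and across 9201 genes elsewhere 0.82. Genes are not independent, both values come from the same 6 libraries, and intron reads can include exons that the gene model lacks.

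The 4 genes with the most intron reads show the pattern. Hmbox1, a telomere-binding homeobox protein, had 1763, 2234 and 2063 against 1358, 1287 and 1400 intron reads, and its exon level was 41.4, 59.2 and 57.9 CPM against 38.5, 34.3 and 38.7 CPM. The knock-out libraries were higher throughout, by 0.58 in intron reads and 0.51 ± 0.15 in exon reads (adjusted p = 0.0553), a difference in exon reads that did not pass but passed without KO1 (0.000216), with the last number of the library titles, whose meaning is not stated, as covariate (0.0143) and in DESeq2, a second count test (0.0212). Mtmr9, a catalytically inactive myotubularin-family protein, had intron reads of 1541, 1257 and 1009 against 1017, 943 and 867 and exon levels of 65.1, 63.1 and 65.7 CPM against 47.9, 44.8 and 49.3 CPM. It rose by 0.45 ± 0.07 (adjusted p = 0.00727) in exon reads and stood 0.45 higher in intron reads, where KO3 and WT4 were nearly equal.

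Nisch, which encodes the integrin-binding protein nischarin, had intron reads of 977, 1357 and 1379 against 826, 900 and 872 and rose by 0.72 ± 0.11 (adjusted p = 0.00854) in exon reads, against 0.51 in intron reads. Acin1, an RNA-binding protein of splicing complexes, had 1025, 1216 and 1160 against 795, 725 and 831 intron reads and rose by 0.59 ± 0.12 (adjusted p = 0.0175) in exon reads, and intron reads were 0.53 higher. The exon calls of Mtmr9 and Nisch were lost without WT4 (adjusted p = 0.05002 and 0.0537), and that of Acin1 without any 1 of KO2, KO3, WT4, WT5 or WT6 (adjusted p = 0.065 to 0.0723).

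Tkt differed in size between the 2 kinds of read. This gene, the transketolase of the pentose phosphate pathway, was at 257, 255 and 241 CPM against 196, 223 and 196 CPM, 0.29 ± 0.08 higher, but at 1.23 in intron reads. Intron reads of Tkt were 199, 308 and 263 against 98, 145 and 85. WT5 was the wild-type library nearest the knock-out in exon levels. The exon call of Tkt (adjusted p = 0.0468) was lost in 10 alternatives, among them total-count scaling (0.153), DESeq2 size factors (0.0504) and leaving out any 1 library but KO1 (0.0543 to 0.181).

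**Figure D4:**
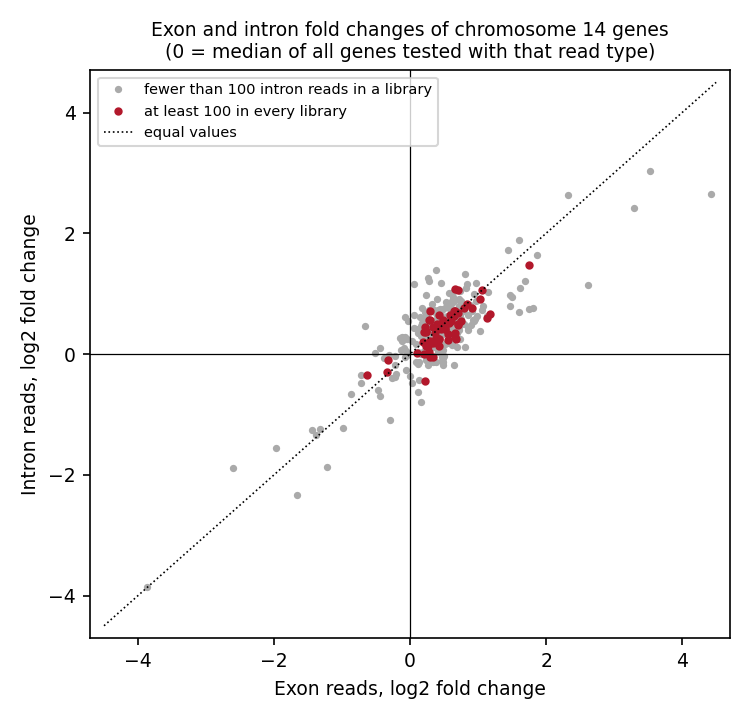
Exon fold change (x axis) against intron fold change (y axis) of the 318 chromosome 14 genes with both, on the log2 scale, each relative to the median of all genes tested with that kind of read, with the 65 genes of at least 100 intron reads per library in red. Most points lie at the upper right near the dotted line of equal values, 251 with both values above 0.

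The shift was present in each group of genes by level, size, strand or base composition. Ordered by mean RPKM, the authors' level per length of exon, the 115 lowest genes were shifted by 0.40, the middle 114 by 0.44 and the 115 highest by 0.33. Ordered by gene length, the shift was 0.29, 0.42 and 0.49 from the shortest to the longest genes. Genes elsewhere within the same length limits showed -0.06, 0.03 and 0.12, so that the excess of chromosome 14 was 0.35, 0.39 and 0.36. Ordered by the GC content of the longest transcript, it was 0.45, 0.37 and 0.38 from low to high. Genes of the plus and of the minus strand were both at 0.40. Because the use of strand in counting is not given in the sources used here, overlapping genes may share reads. The 223 genes that overlap no other gene of the table were shifted by 0.38 and the 121 that do by 0.42.

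Genes of 8 lists by role are given next, to be read beside the 344 genes as a whole. Of those 344, 85.8% were above the median of all genes, 50.9% rose and 3.2% fell, and 230 rose without KO1. RNA processing genes on the chromosome were all above that median. Of 17 listed, 12 rose, 0 fell and 5 did not pass, with a median shift of 0.45, and 16 rose without KO1. The list includes Zc3h13, part of the m6A methylation complex, which had 69.8, 96.2 and 94.97 CPM against 44.4, 40.3 and 45.4 CPM and rose by 1.00 ± 0.14 (adjusted p = 0.0065). Its partner in m6A methylation, the catalytic subunit Mettl3, rose by 0.47 ± 0.10 (adjusted p = 0.0196), from 21.2 to 29.2 CPM on average. Thoc7, a subunit of the RNA export complex THO, rose by 0.57 ± 0.08 (adjusted p = 0.00594), Dis3, a nuclease of the exosome, by 0.87 ± 0.17 (adjusted p = 0.0167), and Ints9, of the Integrator complex, by 0.54 ± 0.09 (adjusted p = 0.0107).

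The most abundant genes of that list were at its lower end. Mbnl2, a splicing regulator, had 397, 384 and 366 CPM against 321, 327 and 333 CPM. All 3 knock-out values were higher, by 0.22 ± 0.07, which did not pass (adjusted p = 0.0643) but passed without KO1 (0.0124) and in DESeq2 (0.00231). Hnrnpc, which binds nascent transcripts, had 216, 240.3 and 238 CPM against 212, 196 and 209 CPM, with KO1 close to WT4, and its 0.17 ± 0.08 did not pass (adjusted p = 0.157, and 0.0109 without KO1).

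Genes of the cell cycle, DNA repair and chromosome maintenance lay above the median in 18 of 18 cases, with a shift of 0.42. Of them 11 rose and 0 fell, and 17 rose without KO1. Top2b, a DNA topoisomerase, had 192, 267 and 278 CPM against 129, 132 and 143 CPM. KO1 was the lowest knock-out library and still above the wild type, and the gene rose by 0.86 ± 0.15 (adjusted p = 0.0124). Lats2, a kinase of the Hippo pathway, had 231, 238 and 226 CPM against 173, 159 and 178 CPM, a narrow spread in both groups, and rose by 0.45 ± 0.07 (adjusted p = 0.0105). Both calls were lost without WT4 (adjusted p = 0.0663 and 0.0599), that of Lats2 without KO2 (0.0502), and that of Top2b without WT5 or WT6 (0.0552 and 0.0508).

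Rb1, the retinoblastoma gatekeeper of the cell cycle, had 34.5, 38.4 and 36.6 CPM against 22.7, 20.3 and 24.4 CPM and rose by 0.70 ± 0.10 (adjusted p = 0.00631). The tumour suppressor Bap1, a deubiquitinase, rose by 0.31 ± 0.09 (adjusted p = 0.0437), and Pbrm1, a subunit of the PBAF chromatin remodeller, by 0.60 ± 0.12 (adjusted p = 0.0163). Mzt1, of the gamma-tubulin ring complex, had 52.3, 49.6 and 48.04 CPM against 44.1, 41.2 and 45.1 CPM. Its knock-out values were all higher, but the 0.20 ± 0.07 passed only without KO1 (adjusted p = 0.0836, and 0.04 without it). Cenpj, a centriole protein, was the lowest of the list at 0.11 and did not pass.

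Of 5 nuclear transport genes, 4 rose and 1 did not pass, and the same counts were found without KO1. Kpna3, an importin alpha that binds nuclear localisation signals, had 80.3, 85.8 and 90.2 CPM against 51.6, 48.7 and 51.1 CPM. The groups were far apart for their spread, and it rose by 0.76 ± 0.07 (adjusted p = 0.00222). The exportin genes Xpo4 and Xpo7 rose by 0.67 ± 0.16 and 0.49 ± 0.13 (adjusted p = 0.0289 and 0.0438). Ipo4, an importin, had 153, 121 and 115 CPM against 97.3, 96.2 and 98.02 CPM, with KO1 highest, and its rise of 0.42 ± 0.12 (adjusted p = 0.0492) was lost in 11 alternatives, among them total-count scaling (0.15), unique exon reads (0.0883) and leaving out any 1 library but KO1 (0.0623 to 0.154). Ipo5, another importin and the most abundant of the list, went the other way. It had 148, 194 and 194 CPM against 197, 191 and 196 CPM, so that only KO1 differed from the rest, and its -0.12 ± 0.12 did not pass (adjusted p = 0.479).

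Of 14 genes of the proteasome and of ubiquitin transfer, 7 rose and 0 fell, with a shift of 0.39, and 8 rose and 1 fell without KO1. Psmd6, a subunit of the proteasome's regulatory particle, had 88.3, 79.04 and 75.7 CPM against 59.1, 60.2 and 59.2 CPM and rose by 0.45 ± 0.08 (adjusted p = 0.0124). The proteasome genes were not alike. Psmb5, a catalytic subunit, had 98.00, 77.2 and 81.1 CPM against 78.7, 81.1 and 73.7 CPM and Psme1 and Psme2, subunits of the interferon-inducible activator, were at -0.03 ± 0.14 and -0.03 ± 0.10, with overlapping groups in all 3. Mycbp2, a very large ubiquitin ligase, had 145, 263 and 279 CPM against 191, 154 and 209 CPM, so that KO1 lay below all wild-type libraries and KO2 and KO3 above them, and its 0.31 ± 0.27 did not pass (adjusted p = 0.412, and 0.0067 without KO1).

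Among 15 genes of the endoplasmic reticulum and secretory pathway, 7 rose, 1 fell and 7 did not pass, with a shift of 0.39 (11 and 1 without KO1). Tm9sf2, a membrane protein of endosomes and the Golgi, had 344, 325 and 319.9 CPM against 236, 227 and 247 CPM. The groups did not overlap, and it rose by 0.48 ± 0.07 (adjusted p = 0.00835), with 0.63 in intron reads. Arf4, a small GTPase of Golgi traffic outside this list, had 347, 423 and 406 CPM against 257, 252 and 257 CPM and rose by 0.62 ± 0.10 (adjusted p = 0.00835), with 0.56 in intron reads. Without WT4 both calls were lost (adjusted p = 0.0572 and 0.0525).

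Sec24c, a cargo adaptor of COPII vesicles, had 154, 167 and 161 CPM against 116, 107 and 116 CPM and rose by 0.50 ± 0.07 (adjusted p = 0.00663). Txndc16, a thioredoxin-domain protein, was the highest of the secretory list, with 65.5, 103 and 105 CPM against 32.5, 37.2 and 29.5 CPM and a rise of 1.46 ± 0.20 (adjusted p = 0.00634). Dnajc3, a chaperone regulator induced by unfolded proteins, had 437, 339 and 330.1 CPM against 295, 289 and 295 CPM. KO1 was highest, no values overlapped, and the 0.33 ± 0.13 did not pass (adjusted p = 0.1, and 0.00991 without KO1). The gene that fell was Ktn1, the kinesin-binding protein kinectin, at 158, 157 and 156 CPM against 198, 183 and 208 CPM. Its 3 knock-out values were close together and below the wild type, and it fell by 0.32 ± 0.08 (adjusted p = 0.0272), a call lost without KO2, KO3, WT4 or WT6 (0.098 to 0.112).

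Mitochondrial and metabolic genes had the smallest shift of the 8 lists, 0.27. Of 21, 8 rose and 1 fell, and 10 rose and 1 fell without KO1. The list's median was 0.48, 0.19 and 0.28 in KO1, KO2 and KO3. Glud1, glutamate dehydrogenase, had 422, 395 and 394 CPM against 265, 250.1 and 271 CPM, with all knock-out values above the wild type, and rose by 0.62 ± 0.07 (adjusted p = 0.00416), with 0.62 in intron reads. Vdac2, an outer membrane channel, had 174, 279 and 268 CPM against 114, 112 and 116 CPM and rose by 1.08 ± 0.19 (adjusted p = 0.011), with 1.08 in intron reads. Sucla2, a subunit of succinyl-CoA ligase, rose by 0.57 ± 0.07 (adjusted p = 0.00487), and Bnip3l, a mitophagy receptor, by 0.73 ± 0.10 (adjusted p = 0.00577). Fdft1, squalene synthase, had 98.5, 93.6 and 86.99 CPM against 108, 137 and 99.97 CPM, entirely lower in the knock-out, but its -0.31 ± 0.13 did not pass (adjusted p = 0.138).

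Gch1, the first enzyme of tetrahydrobiopterin synthesis, was the metabolic gene that fell. It had 11.8, 5.28 and 3.62 CPM against 41.6, 42.8 and 39.98 CPM. KO1 kept more of it than KO2 and KO3, all far below the wild type, and it fell by 2.58 ± 0.43 (adjusted p = 0.0104). Its intron reads fell by 1.88 (adjusted p = 0.0227).

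Of 16 genes of the cytoskeleton, adhesion and small GTPase control, 8 rose and 1 fell, with a shift of 0.37, and 13 rose and 1 fell without KO1. Nisch had exon levels of 489, 624 and 611 CPM against 346, 345 and 353 CPM, without overlap between the genotypes. Sorbs3, the adhesion adaptor vinexin, had 210.4, 206 and 209 CPM against 112, 93.4 and 123 CPM and rose by 0.93 ± 0.11 (adjusted p = 0.0042), with 0.77 in intron reads.

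The largest difference of that list was in Dpysl2, a microtubule-binding protein of growing axons. It had 50.04, 60.99 and 60.2 CPM against 10.9, 12.3 and 10.6 CPM and rose by 2.34 ± 0.12 (adjusted p = 4.14e-04), with 2.64 in intron reads. The 3 libraries of each genotype were close together. Dock5, an activator of Rac, had 71.4, 57.1 and 64.3 CPM against 103, 100.4 and 109 CPM and fell by 0.70 ± 0.10 (adjusted p = 0.0069). Lmo7, an adhesion and LIM-domain protein, was lowest in KO1, with 1.13, 21.3 and 22.1 CPM against 23.4, 36.3 and 27.1 CPM, and its -0.97 ± 0.90 did not pass (adjusted p = 0.451).

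Secreted proteins, receptors and signalling genes scattered most. Of 15, 6 rose, 1 fell and 8 did not pass, with a shift of 0.33, and without KO1 8 rose and 4 fell. Itm2b, a membrane protein that gives rise to secreted peptides, had 1597, 1225 and 1231 CPM against 636, 489.8 and 654 CPM and rose by 1.19 ± 0.17 (adjusted p = 0.00653). Bmpr1a, a type 1 receptor for bone morphogenetic proteins, had 291, 339.8 and 347 CPM against 199, 179.9 and 204 CPM and rose by 0.75 ± 0.10 (adjusted p = 0.00577), and Prkcd, protein kinase C delta, rose by 0.74 ± 0.08 (adjusted p = 0.00357). Tsc22d1, a transcriptional regulator responsive to TGF-beta, had 166, 162 and 166 CPM against 229, 213 and 220.0 CPM and fell by 0.42 ± 0.07 (adjusted p = 0.00855).

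Several abundant genes of this list did not pass. Tpt1, the translationally controlled tumour protein, had the highest level per length of the 344, a mean RPKM of 2301, followed by Itm2b with 354. It had 2529, 4103 and 4106 CPM against 2885, 2734 and 2807 CPM, so that KO1 lay below the wild type and KO2 and KO3 above. Its 0.35 ± 0.20 did not pass (adjusted p = 0.242) but passed without KO1 (6.38e-05), and because the gene has processed copies elsewhere in the genome its reads may be shared. Ctsb, the lysosomal protease cathepsin B, had 1466, 1089 and 1104 CPM against 1101, 1177 and 1010.3 CPM. KO1 alone was high, and its 0.15 ± 0.15 turned to -0.0064 without KO1. Rnase4, a secreted ribonuclease outside the lists, had 639, 341 and 329.6 CPM against 432, 365 and 403 CPM, again high in KO1 only, and its 0.13 ± 0.28 turned to -0.26 without KO1 (adjusted p = 0.0217).

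Lists of roles did not part from the remaining genes by their medians. The 121 genes in a list were shifted by 0.39, with 63 rises and 4 falls, and the 223 in none by 0.41, with 112 rises and 7 falls. The lists were chosen with earlier results of these data known.

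Several of the large rises were unequal among the knock-out libraries. Itgbl1, an integrin-related secreted protein, had 162, 14.05 and 16.4 CPM against 3.39, 2.63 and 2.87 CPM. KO1 was far above KO2 and KO3, which were themselves above the wild type, and the gene rose by 4.44 ± 1.13 (adjusted p = 0.0348). Pcdh9, a protocadherin, had 16.2, 47.6 and 47.6 CPM against 3.34, 3.08 and 3.06 CPM, lowest of the knock-out in KO1, and rose by 3.55 ± 0.45 (adjusted p = 0.00494), with 3.05 in intron reads. Gpc6, a glypican, had 68.2, 201 and 207 CPM against 17.1, 11.7 and 19.2 CPM and rose by 3.31 ± 0.48 (adjusted p = 0.00696). Thrb, a thyroid hormone receptor, had 60.6, 19.5 and 18.7 CPM against 6.20, 2.96 and 6.81 CPM, highest in KO1, and rose by 2.63 ± 0.60 (adjusted p = 0.025). Ptprg, a receptor tyrosine phosphatase, had 213, 399.7 and 401 CPM against 117, 110.5 and 126 CPM, with KO1 between the others and the wild type, and rose by 1.52 ± 0.26 (adjusted p = 0.0105). The calls of Itgbl1 and Thrb were lost without any 1 wild-type library (adjusted p = 0.0782 to 0.123), and that of Ptprg without WT4 or WT5 (0.0577 and 0.0507).

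Among genes of modest difference, some were nearly equal in the 3 knock-out libraries and others were not. Tdrd3, a Tudor-domain protein that binds methylated arginine, had 37.9, 39.8 and 39.8 CPM against 26.3, 27.8 and 27.01 CPM and rose by 0.54 ± 0.07 (adjusted p = 0.00518), with 0.47 in intron reads. Each group spanned less than 2 CPM. Mtmr9 likewise lay within 63.1 to 65.7 CPM in the knock-out and 44.8 to 49.3 CPM in the wild type. Anxa7, an annexin, had 282, 180.0 and 169 CPM against 154, 155 and 152 CPM, with KO1 far above the other knock-out libraries, and its 0.45 ± 0.20 did not pass (adjusted p = 0.15).

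**Figure D5:**
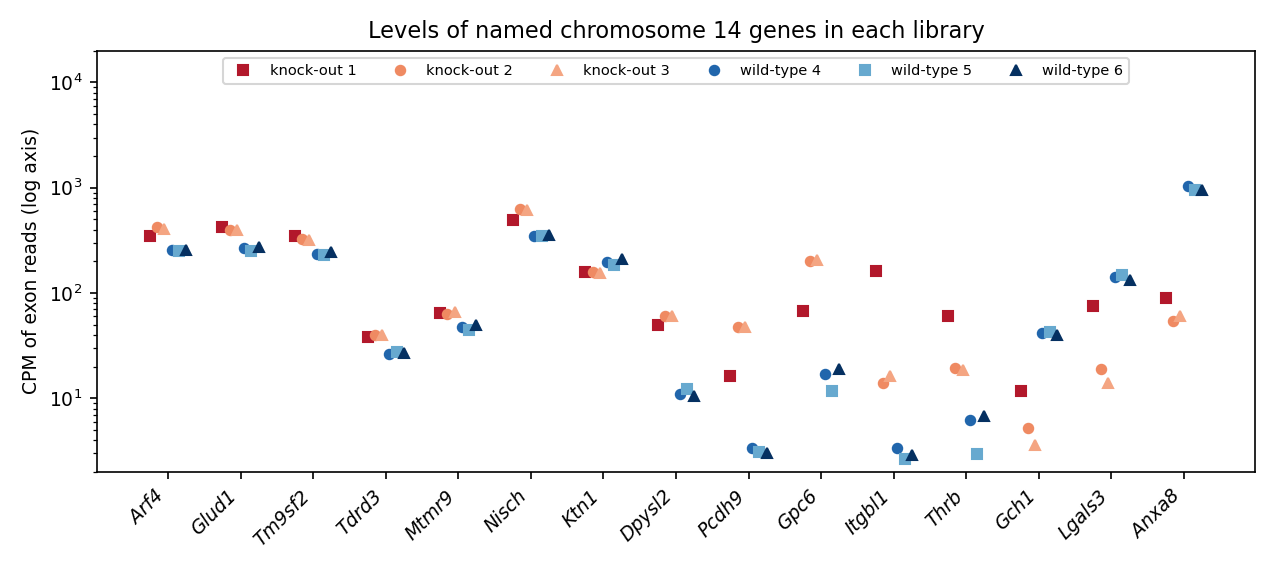
CPM of exon reads (y axis, log scale) in each of the 6 libraries for 15 named chromosome 14 genes (x axis). Arf4, Glud1, Tm9sf2, Tdrd3 and Mtmr9 show a small step between tight groups, Pcdh9, Gpc6, Itgbl1 and Thrb large rises in which KO1 differs from KO2 and KO3, and Gch1, Lgals3 and Anxa8 lower knock-out values.

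Of the 11 genes that fell, Prxl2a and Gm8113 were next to each other, and the other 9 lay between genes that did not fall. Anxa8, an annexin abundant in epithelia, had 89.3, 53.8 and 60.2 CPM against 1032, 956 and 950.1 CPM. It fell by 3.85 ± 0.22 (adjusted p = 5.98e-04), and its intron reads, 8, 5 and 16 against 138, 153 and 133, gave the same -3.85. The mesothelial and epithelial markers named above were lower in the same libraries, and their part in the value of Anxa8 was not tested. Ncoa4, the receptor for ferritin autophagy, had 191, 184 and 175 CPM against 360.0, 305 and 327 CPM and fell by 0.85 ± 0.09 (adjusted p = 0.00301). Il3ra, a cytokine receptor chain, had 10.2, 11.03 and 10.1 CPM against 21.04, 30.5 and 20.7 CPM and fell by 1.21 ± 0.18 (adjusted p = 0.00735).

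The other falls were Prxl2a (-1.42), Gm8113 (-1.30), Scara3 (-0.61), Tmem254b (-0.52), Gch1, Dock5, Ktn1 and Tsc22d1. Tmem254b has near-identical copies, so its reads are uncertain. In Scara3, a scavenger receptor, the values were 225, 185 and 206 CPM against 277, 391 and 271 CPM. Lgals3, the lectin galectin-3, had 75.3, 19.1 and 13.9 CPM against 142, 148 and 132 CPM, with KO1 between KO2 and the wild type. Its -1.96 ± 0.65 did not pass (adjusted p = 0.072), but passed without KO1 (7.83e-06), with the title number as covariate (0.0214) and in DESeq2 (0.004). Ephx2, soluble epoxide hydrolase, had 54.02, 9.76 and 11.1 CPM against 84.5, 64.1 and 86.95 CPM, with KO1 again nearest the wild type, and its -1.65 ± 0.69 (adjusted p = 0.127) passed only without KO1 (2e-05) and in DESeq2 (0.0297). Gdf10, a secreted factor of the TGF-beta family, had 1.08, 6.13 and 6.70 CPM against 9.81, 16.4 and 12.46 CPM and was also entirely lower without passing, at -1.48 ± 0.64 (adjusted p = 0.136, and 0.00741 without KO1).

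With a minimum of 20 reads (357 genes) or of 200 reads (298 genes) in place of 50, the shift was 0.40 in both cases. At the limit of 50, Carmil3 and Klf5, each with 54 reads in the library that set the limit, the fifth highest, were taken, with log2 fold changes of 1.59 and -0.55. Gfra2 and Tbc1d4, with 49 reads there, were not, with 2.01 and 2.35. The 61 tested genes of the chromosome under the minimum scattered widely, with a shift of -0.02 and an interquartile range of 2.12. The 22 tested genes set aside by name, whatever their reads, scattered as widely, with an interquartile range of 2.06. Their shift was 0.40, with 13 of 22 (59.1%) above the median of all genes.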

How the data were processed

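Per the labels' protocols, libraries were made from 1 ug of RNA of each of 6 samples with a stranded kit that selects poly(A) RNA. The authors deposited 1 table of unnormalised read counts for 25683 genes and 6 libraries: exon reads (identical to the column of expression values), unique exon reads, exon-exon junction reads and intron reads. RPKM in the same table, as the authors deposited them (within a library proportional to exon reads over exon length), served here only to compare levels between genes. Coordinates and lengths are those of the table, on GRCm38 (mm10) per the submitters' processing notes. Which aligner and counter were used, and whether they read the strand, is not given in the sources used here. Overlapping and antisense genes are therefore uncertain.

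Exon reads were tested over the whole table with edgeR 4.0.16 in R 4.3.3: filterByExpr with a minimum count of 10, TMM scaling, quasi-likelihood F test on genotype, Benjamini-Hochberg adjustment over 12660 genes, threshold 0.05. Intron reads were tested alike over 10653 genes. CPM use TMM-adjusted library sizes, and log2 CPM a prior count of 2. A shift is the median log2 fold change of the chromosome 14 genes minus that of all tested genes. On simulated data for 12660 genes of this comparison, 71.9% of 4-fold, 31.3% of 2-fold and 2% of 1.5-fold changes were called. In the simulation far fewer genes were changed than the 3524 called in the data, so its adjusted threshold was stricter. Those shares are therefore not the detection rates of the comparison itself. The members, gene lists and tests were chosen with earlier results of these data known. Named genes are the most abundant per 10 Mb window, the 5 largest non-overlapping differences each way with a mean of at least 100 reads, the 2 most abundant per role list and the 4 with most intron reads. Others, among them the highest and lowest of a list and the genes that fell, were chosen after their values were seen. Some genes that the rule names are not reported here. Alternatives were DESeq2 1.42.0 size factors and test, total-count scaling, TMM without chromosome 14, other filters, unique reads, the last title number as covariate, summed near-identical libraries, each library left out, and, chosen after seeing the data, reference genes of similar read level and libraries sharing a number in their titles, whose meaning is not stated.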

Additional observations from a re-analysis of the deposited data

How the results depend on the processing

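The shift of chromosome 14 stayed positive under every alternative run. In exon reads it was 0.40 and moved by more than the spread between wild-type libraries only when the libraries with titles ending in 1 were used alone (KO1 against WT5, 0.45). In intron reads it was 0.44, with 0.40 for those 2 libraries, 0.37 for the libraries with p11 in their titles (KO1 against WT4 and WT5), and 0.41 to 0.48 when each library was left out. Counts of called genes depended on single libraries. Leaving out each library gave 72 (without WT4) to 230 (without KO1) rises and 6 to 37 falls among the 344 genes in exon reads, and 1120 to 8486 of all genes. In intron reads it gave 10 to 132 rises, 5 to 18 falls and 514 to 3559 of all genes. With near-identical libraries summed, 0 rises, 0 falls and 17 of all genes passed in edgeR. DESeq2's test called 193 rises and 14 falls. Total-count scaling gave 143 and 12, and over all genes 40.1% instead of 50.7% of called genes were then higher. Of 22 named calls, 22 were lost with summed libraries, 15 without WT4, 8 without WT5, 8 without WT6, 6 without KO2, 5 without KO3 and 0 without KO1. With each library left out Rnase4 ranged from -0.26 to 0.29 and Ctsb from -0.0064 to 0.23, reversed only without KO1, and the cause was not tested. Simulated 1.5-fold changes were rarely called, but with far fewer changed genes than in the data, so that rate does not carry over. Genes that did not pass are still not shown to be alike in both genotypes. With the last number of the library titles, whose meaning is not stated, as covariate, 193 rose, 13 fell and 4510 of all genes passed. Sample numbers are not shared between the genotypes and pair no libraries.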
